A study of Mus musculus with 2 samples.

Results

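Matrix metalloproteases (MMPs), ADAMs, ADAMTS proteases, ADAMTS-like (ADAMTSL) proteins and their inhibitors were followed in the vagina of Fbln5-/- and WT mice. Probe sets of a whole-genome Affymetrix mouse array were taken where the platform annotation gave exactly 1 gene and its symbol was that of an MMP, ADAM, ADAMTS or ADAMTSL gene, of Timp1 to Timp4, or of Reck. This gave 125 probe sets for 71 genes, of 34945 probe sets and 18193 genes in all: 18 MMP genes, 28 ADAM genes, 15 ADAMTS genes, 5 ADAMTSL genes, and 5 inhibitor genes. One array carried RNA from Fbln5-/- vagina and 1 carried RNA from WT vagina, both from females labelled as C57/Bl6 and 6 months old. The knockout carried the targeted Fbln5 allele in every tissue, so no cell type was singled out. Mice of both genotypes were ovariectomized and given estradiol at 50 µg/kg/d for 3 d. The sample labels place ovariectomy at 11 d, the series description at 2 weeks, and the methods start estradiol 2 weeks after it. The methods give 2 animals in each group and do not say whether RNA was pooled, so no difference has a replicate check, and no p-value or error between animals is given.

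MMPs are zinc proteases that are secreted, or anchored at the cell surface, as inactive proenzymes and together cleave collagen, gelatin, elastin and other matrix proteins. ADAMs are membrane proteases that cut the outer part of growth factors, cytokine receptors and adhesion molecules from the cell. ADAMTS enzymes are secreted, bind the matrix and cleave proteoglycans or procollagen, and ADAMTSL proteins share their binding modules but have no protease domain. The TIMPs block the active site of these enzymes, and Reck is a membrane-anchored inhibitor of MMPs. Mice without fibulin-5 fail to assemble elastic fibres, and the balance between MMPs and their inhibitors in the vaginal wall is the question that the families bear on.

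Signals were scaled to a common median, a gene was called measured where a probe set reached 100 on at least 1 array, and signals under 100 were raised to 100. Ratios are Fbln5-/- over WT on the log2 scale. A gene below 100 on 1 array thus has a bound, and it could differ only in the direction that brought it past the limit. The targeted gene, Fbln5, which encodes the elastic fibre protein fibulin-5, had a signal of 30.4 on the Fbln5-/- array and 410.4 on the WT array, at least 4.10-fold lower. Fibroblast markers (6 of 6 measured) and smooth muscle markers (5 of 5) were present on both arrays, as were all 7 epithelial markers with a probe set. In bulk tissue, fewer cells of a type and less RNA per cell cannot be told apart.

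Of the 71 genes, 39 were measured, 31 of them at 100 or more on both arrays. At the brightest probe set of each gene, 4 genes (Mmp3, Adamts3, Adamts5 and Adamtsl1) were higher on the Fbln5-/- array by 2-fold or more, and 2 (Adamts1 and Adamts10) were lower by as much. Over all 11934 genes measured, 692 (5.8%) were called higher and 471 (3.95%) lower. This split turned to 555 and 571 with a scaling that set to 1 the median ratio of probe sets measured on both arrays and that moved the median of all genes by -0.10. The median log2 ratio was 0.35 for MMPs (7 genes), 0.60 for ADAMs (12), -0.18 for ADAMTS genes (10), 0.63 for ADAMTSL genes (5) and 0.41 for the inhibitors (5), beside 0.15 for all genes. The ADAMTS median lay below 0 under each of the other scalings and turned to 0.22 at a limit of 200. The other 4 medians stayed above 0 under each scaling, and that of the inhibitors turned to -0.11 when the median over the probe sets of a gene was taken.

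**Figure D1:**
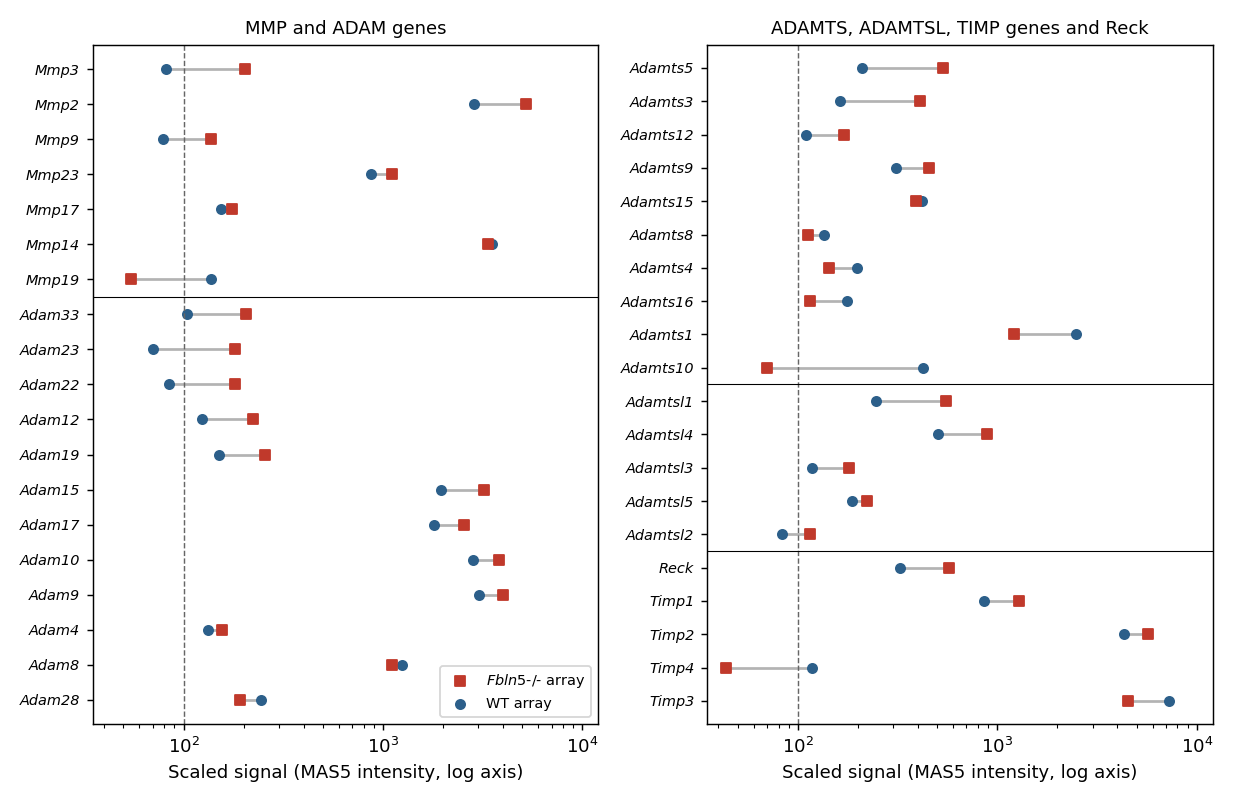
Scaled signal (MAS5 intensity, log axis) of the brightest probe set of each of the 39 measured genes on the Fbln5-/- array (squares) and the WT array (circles), 1 array each, with a dashed line at 100 and solid lines between families. Mmp2, with 5217 and 2870 on the Fbln5-/- and WT arrays, and Timp3, with 4523 and 7288, lie apart in opposite directions, while the signals of Mmp14 nearly coincide.

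**Figure D2:**
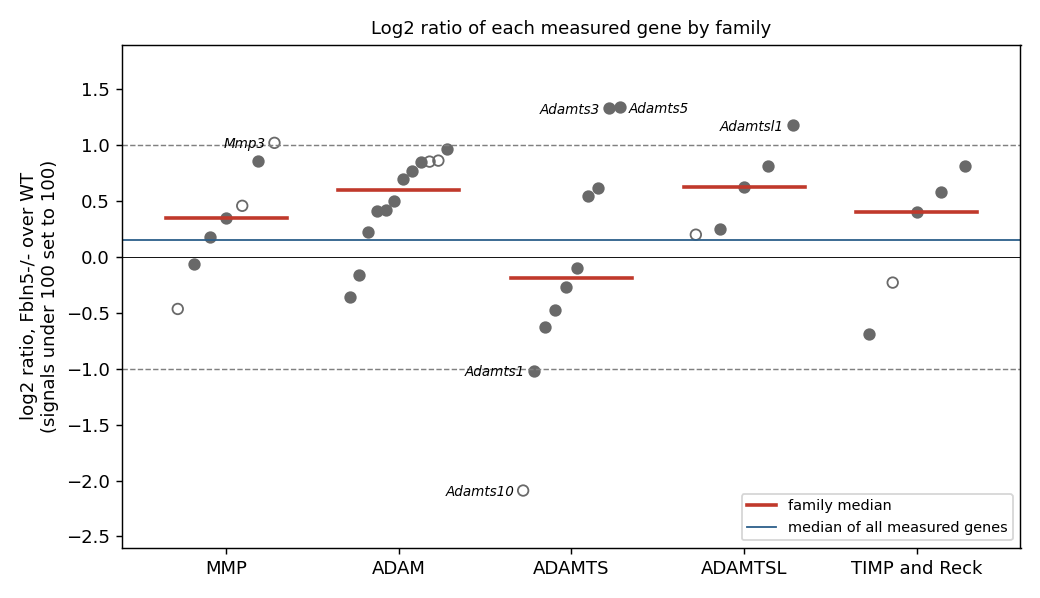
Log2 ratio (Fbln5-/- over WT) of each measured gene by family, with signals under 100 set to 100; open circles are genes under 100 on 1 array. Family medians run from -0.18 (ADAMTS) to 0.63 (ADAMTSL), the median of all genes is 0.15, and dashed lines mark a 2-fold difference, past which 6 named genes lie.

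Promoter sequence was available for 42 of the 71 genes, from RefSeq (GRCm38.p6). Those of Mmp3, Adamts1, Adamts3 and Timp3, which stood apart, and of Mmp14, near equal at its brightest probe set, are printed as examples. No ADAM or ADAMTSL promoter is among them. Each run covers the 250 bases before the annotated transcript start, 5′ to 3′ on the strand of the gene. Capitals mark the AP-1 motif TGANTCA, the TATA box TATAAA (strand of the gene only) and the GC box GGGCGG (or CCGCCC, its other strand); TGANTCA reads alike on both strands and the 3 motifs do not overlap each other.
Mmp3, chr9:7445572-7445821, + strand, higher on the Fbln5-/- array: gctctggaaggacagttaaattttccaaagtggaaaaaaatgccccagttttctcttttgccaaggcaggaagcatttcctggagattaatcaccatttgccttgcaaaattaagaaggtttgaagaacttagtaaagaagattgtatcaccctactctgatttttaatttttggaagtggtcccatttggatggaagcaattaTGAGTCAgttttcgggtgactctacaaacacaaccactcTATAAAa
Mmp14, chr14:54431348-54431597, + strand, near equal at its brightest probe set: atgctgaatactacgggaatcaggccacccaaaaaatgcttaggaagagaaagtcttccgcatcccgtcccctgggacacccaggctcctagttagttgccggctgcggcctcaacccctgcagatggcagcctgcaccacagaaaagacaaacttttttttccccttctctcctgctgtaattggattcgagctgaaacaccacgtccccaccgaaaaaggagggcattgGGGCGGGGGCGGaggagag
Adamts3, chr5:89883335-89883584, - strand, higher: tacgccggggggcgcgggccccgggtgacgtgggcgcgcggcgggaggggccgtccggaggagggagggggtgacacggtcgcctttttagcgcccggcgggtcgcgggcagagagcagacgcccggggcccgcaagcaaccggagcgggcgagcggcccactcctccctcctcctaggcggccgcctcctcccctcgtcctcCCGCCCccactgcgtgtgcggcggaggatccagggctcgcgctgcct
Adamts1, chr16:85803114-85803363, - strand, lower: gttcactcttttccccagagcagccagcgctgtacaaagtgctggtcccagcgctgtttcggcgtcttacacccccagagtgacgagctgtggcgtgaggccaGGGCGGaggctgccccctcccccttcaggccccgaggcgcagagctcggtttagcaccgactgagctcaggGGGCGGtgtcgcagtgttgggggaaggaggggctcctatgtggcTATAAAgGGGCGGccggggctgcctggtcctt
Timp3, chr10:86300162-86300411, + strand, lower at every probe set: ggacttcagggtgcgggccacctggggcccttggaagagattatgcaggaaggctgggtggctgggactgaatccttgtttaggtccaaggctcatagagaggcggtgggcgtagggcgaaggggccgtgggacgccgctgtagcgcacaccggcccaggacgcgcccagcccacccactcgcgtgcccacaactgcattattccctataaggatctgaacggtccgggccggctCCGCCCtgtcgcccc

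The Mmp3 run holds 1 AP-1 motif, whose first base lies 46 bases before the start, and 1 TATA box, which begins 7 bases before it, and its GC content is 37.6%. Mmp14, Adamts3, Adamts1 and Timp3 hold no AP-1 motif in these windows, and their GC content is 55.2%, 78.0%, 65.6% and 65.6%. AP-1 motifs stood in the windows of 8 of 13 MMP genes (Mmp1a, Mmp1b, Mmp3, Mmp7, Mmp10, Mmp12, Mmp13 and Mmp20), beside 7.82% of 27025 genes in the promoter table. All 8 lie in a run of 10 neighbouring MMP genes on chromosome 9, so they are not separate cases. Mmp8 of that run held none, nor did Mmp11, Mmp14, Mmp23 and Mmp24, which lie outside it. Mmp7 and Mmp12 each also had another window without the motif. Of the other families, 2 of 14 ADAM genes held the motif, and none of 6 ADAMTS, 4 ADAMTSL and 5 inhibitor genes did. GC boxes stood in 5 of 6 ADAMTS, 4 of 4 ADAMTSL and 4 of 5 inhibitor genes, beside 35.4% of all genes. In MMP and ADAM genes they were less frequent than that, at 3 of 13 and 4 of 14. Of the 8 MMP genes with an AP-1 motif, 1 was measured, which was Mmp3.

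Among MMPs, 7 of 18 genes were measured. Of these, 1 passed 2-fold upward on the Fbln5-/- array and none downward, beside 5.8% and 3.95% of all genes measured. Mmp3, the broad-acting protease stromelysin-1, had signals of 203 on the Fbln5-/- array and 81.7 on the WT array, at least 2.03-fold higher. Its ratio stood at the threshold: it was 1.02 on the log2 scale, 0.98 on the deposited scale and 0.97 with the median ratio set to 1, and the call was lost under both and with the arrays scaled at the 75th percentile. Mmp3 was represented by 1 probe set and passed the limit on the Fbln5-/- array alone, so only an increase could be seen.

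The gelatinases cleave denatured collagen and basement membrane collagen. Mmp2, the gelatinase of stromal cells, had signals of 5217 and 2870 on the Fbln5-/- and WT arrays at 1 probe set and of 3066 and 1799 at the other. The log2 ratios were 0.86 and 0.77, so both probe sets gave nearly the same size, short of 2-fold. Mmp9, the gelatinase of leukocytes and epithelium, had signals of 137 and 79.0, and its second probe set reached the limit on neither array (78.5 and 56.5). Its difference was thus at least 1.37-fold and rests on the probe set that crossed the limit on the Fbln5-/- array.

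Cell markers that could bear on these enzymes were read beside them. All 6 fibroblast markers lay above 0 at their brightest probe sets, beside 63.6% of all genes measured, and none reached 2-fold there. They ran from 0.10 for Col1a2 to 0.74 for Lum (median log2 ratio 0.33). Their summed signal was 73720.4 on the Fbln5-/- array and 60973 on the WT array. Other probe sets went as low as -0.49 for Col1a2 and -0.57 for Pdgfra, and as high as 1.24 for Col3a1. Of 7 neutrophil markers with a probe set, 5 were measured. Ltf, the brightest of them, had 15164 on the Fbln5-/- array and 14452 on the WT array (log2 ratio 0.07). Which cells gave the Ltf signal cannot be told from bulk tissue, so it is no measure of neutrophils here. The granule genes Elane and Mpo were under 100 on both arrays, Camp (27.4 and 111 on the Fbln5-/- and WT arrays) and Ngp (47.5 and 125) were under 100 on the Fbln5-/- array, and S100a8 (4372 and 1198) and S100a9 (1231 and 423), which epithelium also makes, were higher. Of macrophage markers, 6 of 6 were measured, with Cd14 higher (1033 and 452), C1qa lower (184 and 1847) and the others within 2-fold. Of 5 adipocyte markers with a probe set, 3 were measured (Adipoq, Fabp4 and Retn). All 3 passed 2-fold upward, beside 5.8% of all genes measured. Retn, with 449 on the Fbln5-/- array and 34.8 on the WT array, could be called only upward. The summed signal of the adipocyte list was 7398 on the Fbln5-/- array and 2162 on the WT array. The part of these cells in the MMP signals was not tested.

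Membrane-anchored MMPs act at the cell surface, and Mmp14 is the activator of pro-Mmp2. Mmp14 had signals of 3371 on the Fbln5-/- array and 3512 on the WT array at its brightest probe set, a log2 ratio of -0.06. Its other probe sets had signals of 44.7 and 752, at least 7.52-fold lower, and of 202 and 272 (log2 ratio -0.43). The level of Mmp14 on the Fbln5-/- array thus depended on the probe set that was read. Mmp23 had log2 ratios of 0.35 and 0.04 at its probe sets, with signals of 1114 and 873 on the Fbln5-/- and WT arrays at the brighter. Mmp17, an MMP held by a lipid anchor, had signals of 175 and 155 (log2 ratio 0.18). The soluble protease Mmp19 was under 100 on the Fbln5-/- array at both probe sets (54.5 and 78.5) and had 138 and 114 on the WT array.

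The remaining 11 MMP genes were under 100 on both arrays at every probe set, and their highest signals were 95.7 on the Fbln5-/- array and 99.1 on the WT array. They included all 4 collagenases on the array (Mmp1a, Mmp1b, Mmp8 and Mmp13), the stromelysins Mmp10 and Mmp11, matrilysin (Mmp7), the macrophage elastase Mmp12, the enamel protease Mmp20, and Mmp16 and Mmp24. On chromosome 9, 10 MMP genes follow each other with no protein-coding gene between them. Of the 9 with a probe set, Mmp3 was measured, and the other 8 had signals from 1.95 to 91.3 on the Fbln5-/- array and from 7.68 to 54.7 on the WT array.

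ADAMs formed the largest family, with 28 genes, and 12 were measured. None was at least 2-fold different at its brightest probe set, and 10 of the 12 lay above 0, beside 63.6% of all genes measured. All 9 ADAMs on the array that have a working protease site and act outside the testis were measured, with log2 ratios from -0.36 to 0.97. Adam17, which sheds tumour necrosis factor and ligands of the EGF receptor, had signals of 2548 on the Fbln5-/- array and 1803 on the WT array at its brightest probe set (log2 ratio 0.50). Adam10, which cuts Notch and cadherins, had 3811 and 2839.9 (log2 ratio 0.42), and Adam9 had 4013 and 3013 at its 1 probe set (log2 ratio 0.41). Adam15, an ADAM with an integrin-binding motif, had 3191 and 1962 at its brightest probe set (log2 ratio 0.70).

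The other probe sets of 3 of these genes ran the opposite way. For Adam17 they had signals of 584 on the Fbln5-/- array and 1156 on the WT array (log2 ratio -0.98), and of 47.0 and 321, at least 3.21-fold lower. All 3 Adam17 probe sets are annotated to the same sequence record. For Adam10 they had 302 and 1413, a log2 ratio of -2.23, and 56.0 and 212, at least 2.12-fold lower. For Adam15 they had 249 and 584 (log2 ratio -1.23), 231 and 358 (log2 ratio -0.63), and 3.91 and 435, at least 4.35-fold lower. With the median over probe sets, the log2 ratio was -1.08 for Adam10, -0.98 for Adam17 and -0.93 for Adam15, so the arrays settle no direction for these genes.

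Adam33, Adam12 and Adam19, metalloproteases of mesenchymal cells, had log2 ratios of 0.97, 0.85 and 0.77. Their signals were 205, 222 and 255 on the Fbln5-/- array and 105, 123 and 150.1 on the WT array, close to the limit, and each rests on 1 probe set that was measured. Adam8, which leukocytes carry, had 1106 and 1240.0 (log2 ratio -0.17), and Adam28 had 191 and 245 (log2 ratio -0.36). Adam22 and Adam23, brain proteins without a protease site, had 181 and 182 on the Fbln5-/- array and were under 100 on the WT array (84.2 and 70.6), at least 1.81-fold and 1.82-fold higher. Adam11, of the same group, was not measured.

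The remaining ADAMs are mostly genes of the testis and epididymis, many of them with roles in sperm. Of these, Adam4 was measured, with 155 on the Fbln5-/- array and 133 on the WT array. The other 15 (Adam1a, Adam1b, Adam2, Adam3, Adam5, Adam6a, Adam6b, Adam7, Adam18, Adam21, Adam24, Adam25, Adam26a, Adam32 and Adam34) did not exceed 36.4 on the Fbln5-/- array and 34.2 on the WT array. All 6 germ cell markers, Prm1, Prm2 and Tnp1 among them, were also under 100, at most 60.1 and 57.4 on the Fbln5-/- and WT arrays.

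At the brightest probe set of each gene, ADAMTS genes held most of the 2-fold differences and ran both ways. On the Fbln5-/- array, 2 of the 10 measured genes were higher by 2-fold or more and 2 lower. The shares over all genes measured were 5.8% and 3.95%. Adamts5, the main aggrecan-cleaving protease of mouse cartilage, which also cleaves versican, had signals of 531 on the Fbln5-/- array and 210.1 on the WT array (log2 ratio 1.34). Its other measured probe sets had 387 and 163 (log2 ratio 1.25) and 144 and 105 (0.46), so the 3 shared a direction and differed in size. Adamts3, which trims the amino end of procollagen and activates the lymphatic growth factor Vegfc, had 412 and 164 (log2 ratio 1.33) at 1 probe set, with the second under 100 on both arrays.

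Adamts1, a proteoglycan-cleaving protease needed for ovulation, had signals of 1219 on the Fbln5-/- array and 2468 on the WT array, 2.02-fold lower at its 1 probe set. Its log2 ratio of -1.02 lay at the threshold and fell just short of it with 32 added to each signal. Adamts10, which binds fibrillin microfibrils, had 69.7 and 425, at least 4.25-fold lower. A second Adamts10 probe set reached the limit on neither array (29.1 and 14.8). Both Adamts1 and Adamts10 thus rest on 1 measured probe set. With signals under 100 set to 100, 1 dimmer probe set each of Mmp14, Adam10, Adam15 and Timp2 lay below the -2.09 of Adamts10. That value is a bound: with signals as measured, Adamts10 had -2.61, below the -2.23 of the Adam10 probe set. The brightest probe sets of Mmp14, Adam10, Adam15 and Timp2 lay near 0 or above. Adamts1 and Adamts5 lie next to each other on chromosome 16 with no protein-coding gene between them, and their log2 ratios were -1.02 and 1.34.

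Of the other proteoglycan-cleaving members, Adamts9 had signals of 452 on the Fbln5-/- array and 311 on the WT array (log2 ratio 0.54) and Adamts15 had 391 and 419 (-0.10). Adamts4, with 143 and 199 (-0.48), and Adamts8, with 113 and 136 (-0.27), were near the limit. Adamts12 and Adamts16 had log2 ratios of 0.62 and -0.62, with signals of 169 and 115 on the Fbln5-/- array and 110.5 and 177 on the WT array. The 6 proteoglycan-cleaving members thus ran from -1.02 to 1.34 with no common direction. Adamts6, Adamts7, Adamts18, Adamts19 and Adamts20 were not measured, their highest signals being 73.9 on the Fbln5-/- array and 40.0 on the WT array.

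All 5 ADAMTSL genes were measured. All had a log2 ratio above 0 at the brightest probe set, beside 63.6% of all genes measured. Adamtsl2, under 100 on the WT array, could lie only above 0. Adamtsl1 had signals of 556 on the Fbln5-/- array and 246 on the WT array (log2 ratio 1.18), and its other probe sets had 149.6 and 14.6, and 135 and 82.5, both under 100 on the WT array. Adamtsl4, which binds fibrillin-1 and is known for its part in the lens zonule, had 889 and 505 (log2 ratio 0.82). Adamtsl3 had 181 and 117 (0.63), and Adamtsl2, known from human geleophysic dysplasia, had 115 on the Fbln5-/- array and was under 100 on the WT array (83.5). The probe sets of Adamtsl5 went opposite ways, with 222 and 187 on the Fbln5-/- and WT arrays at the brighter (log2 ratio 0.25) and 106 and 215 at the other (-1.03).

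The inhibitors did not share a direction. Timp3, the TIMP that is bound to the matrix and also blocks Adam17 and the aggrecan-cleaving ADAMTS enzymes, was lower on the Fbln5-/- array at all 4 of its probe sets. Its signals were 4523 on the Fbln5-/- array and 7288 on the WT array, 2481 and 5963, 573 and 1729.9, and 271 and 1060.1. The log2 ratios were -0.69, -1.27, -1.59 and -1.97, so the size grew as the probe set was dimmer, and 3 of the 4 passed 2-fold. Since a gene was read at its brightest probe set, Timp3 was not counted as 2-fold lower; with the median over probe sets it was, at -1.43. All 4 Timp3 probe sets are annotated to 1 sequence record. Of 4893 genes with several measured probe sets, 20.5% had all of them below 0 and 31.8% all above 0, beside 3 (Timp3, Mmp14 and Mmp19) and 4 (Mmp2, Mmp23, Adamts5 and Adamtsl1) of the 12 such members.

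Timp2, which with Mmp14 takes part in the activation of pro-Mmp2, had signals of 5722 on the Fbln5-/- array and 4317 on the WT array at its brightest probe set (log2 ratio 0.41). The next 3 had log2 ratios of 0.02, -0.11 and -0.38, and the dimmest of those measured had 33.3 and 667. These 5 thus descended with brightness, as those of Timp3 did. A sixth, with 4.22 and 21.3, was not measured. Timp1, the inducible TIMP, had 1278 and 854 at its 1 probe set (log2 ratio 0.58). Timp4 had 43.6 and 117 at 1 probe set, at least 1.17-fold lower, and the other was under 100 on both arrays (87.9 and 25.9). Reck had 569.9 and 324 (log2 ratio 0.81), also at 1 probe set.

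**Figure D3:**
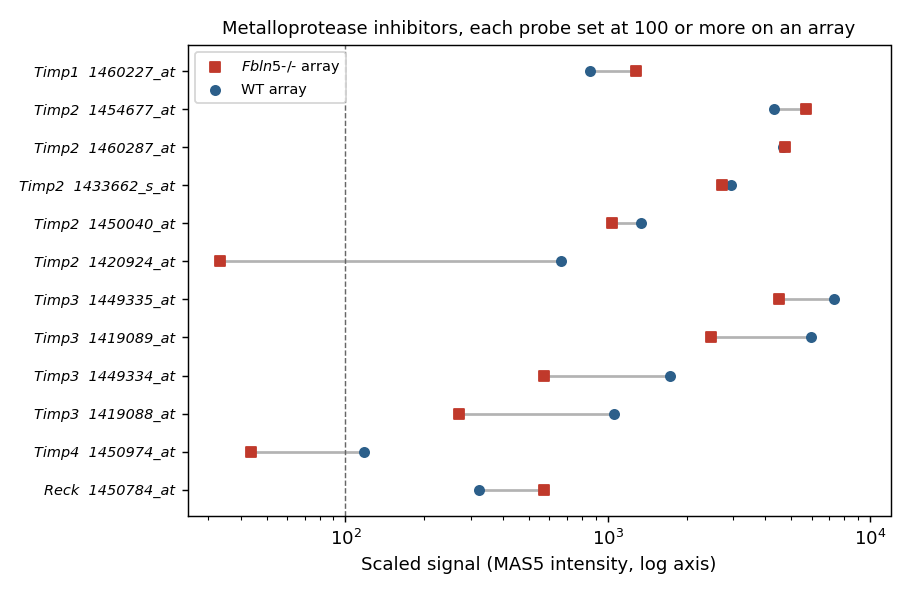
Scaled signal (MAS5 intensity, log axis) of each measured probe set of Timp1 to Timp4 and Reck on the Fbln5-/- array (squares) and the WT array (circles), 1 array each, with a dashed line at 100. All 4 Timp3 probe sets are lower on the Fbln5-/- array, with log2 ratios from -0.69 to -1.97, while Timp1 and Reck are higher.

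Read probe set by probe set, the families looked different from the view by gene. Of 63 measured probe sets, 5 passed 2-fold upward and 13 downward on the Fbln5-/- array, beside 4.74% and 6.39% of the 19627 probe sets of all genes. By family, the higher and lower probe sets were 1 and 1 of 12 for MMPs, none and 5 of 19 for ADAMs, 3 and 2 of 12 for ADAMTS genes, 1 and 1 of 8 for ADAMTSL genes, and none and 4 of 12 for the inhibitors. In 11 of the 12 genes with several measured probe sets the brightest had the highest log2 ratio (55.8% of all such genes), Mmp19 being the other, and in 7 of the 12 the log2 ratios lay at least 1 apart (24.5% of all such genes). Those 7 were Mmp14, Adam10, Adam15, Adam17, Adamtsl5, Timp2 and Timp3. Control probe sets along Gapdh, a glycolytic enzyme, had log2 ratios of 0.05 at the 3′ end, -1.16 in the middle and -4.44 at the 5′ end, and those along Actb, a cytoskeletal actin, had -0.18, -1.22 and -1.87. The part of transcript coverage in the probe set differences of these families was not tested. Nor was it tested for genes read at 1 probe set, such as Adamts1 and Adamts10. Where the probe sets lie along the transcripts was not analysed here.

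**Figure D4:**
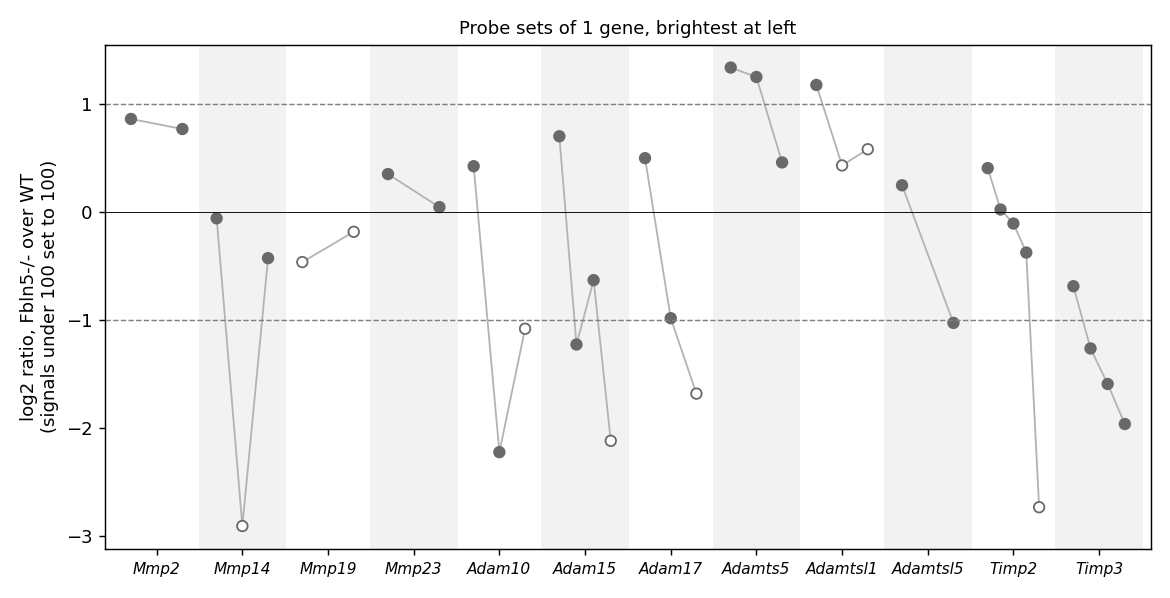
Log2 ratio (Fbln5-/- over WT, signals under 100 set to 100) of every measured probe set of the 12 genes that have several, the brightest at the left of each gene; open circles are under 100 on 1 array and dashed lines mark a 2-fold difference. The probe sets of Mmp2 (0.86 and 0.77) lie together, those of Timp3 descend from -0.69 to -1.97, and those of Adam10, Adam15 and Adam17 cross 0.

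Proteins that act with these families were read in the same way. Of 11 other extracellular metalloproteases, 7 were measured. Beside 5.8% and 3.95% of all genes measured, 2 of the 7 passed 2-fold upward and none downward. These were Mme (neprilysin, a peptidase of the cell surface), with 337 on the Fbln5-/- array and 53.5 on the WT array, at least 3.37-fold higher, and Tll1, a procollagen C-proteinase, with 214 and 65.6, at least 2.14-fold higher. Mme and Tll1 were under 100 on the WT array, so they could be called only upward. Ece2 and Pappa2 had log2 ratios of -0.57 and -0.44. Bmp1, another procollagen C-proteinase, had -0.25 at its brighter probe set and -1.61 at the other.

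Of 22 activators and regulators, 19 were measured, of which 5 were 2-fold or more higher (A2m, Pcolce, Pcsk5, Spock2 and Tspan33) and 2 lower (Lrp1 and Tspan17). Over all genes measured, 5.8% were called higher and 3.95% lower. Tspan33, with 237 on the Fbln5-/- array and 83.5 on the WT array, could be called only upward. Pcolce, which speeds the removal of the procollagen C-propeptide, had 3483 on the Fbln5-/- array and 1430.2 on the WT array (log2 ratio 1.28, and 0.84 at its other probe set). A2m, a protease trap, had 569.8 and 239 (log2 ratio 1.25), and the proprotein convertase Pcsk5 had 644 and 249.9 (log2 ratio 1.36, and 0.05 at its other probe set). Tspan17, of the tetraspanins that carry Adam10 to the cell surface, had 144 and 346 (log2 ratio -1.27, and -0.70 at its other probe set). Tspan5, of the same group, had probe sets that ran opposite ways, with log2 ratios of 0.69 at the brighter and -1.34 at the other. The rest of the group that was measured lay above 0, with log2 ratios of 1.25 for Tspan33, 0.89 for Tspan14 and 0.59 for Tspan15.

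Of 20 proteins shed by Adam10 or Adam17, 17 were measured. Beside 5.8% and 3.95% of all genes measured, 1 of the 17 was 2-fold or more higher and none lower at the brightest probe set. This was Ereg, an EGF receptor ligand, with 558 on the Fbln5-/- array and 104 on the WT array (log2 ratio 2.43). Btc, Tnfrsf1b and Cx3cl1 had log2 ratios of 0.87, 0.78 and 0.74. For 3 of the 17, other probe sets lay at least 1 below the brightest on the log2 scale: the lowest was -5.61 for the syndecan Sdc1 (brightest 0.06), -1.23 for the hyaluronan receptor Cd44 (0.05) and -0.45 for the EGF receptor ligand Tgfa (0.61). Of the 4 proteoglycans cleaved by ADAMTS enzymes, versican (Vcan) was measured, with 1506 and 716 on the Fbln5-/- and WT arrays and log2 ratios of 1.07 and 0.76 at its probe sets. Acan, Bcan and Ncan were under 100 on both arrays.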

How the data were processed

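RNA from the vagina of 1 Fbln5-/- and 1 WT group was read on 1 array each. The authors deposited MAS5 signal intensities on a linear scale for 45101 probe sets (the submitters' processing notes name MAS5; its version was not given in the sources used here). With 2% of probe sets trimmed at either end, each array had a mean intensity of 500.0, so a scaling per array had been applied. Detection calls were not used here.

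Signals were multiplied so that the array medians coincided (factors 1.03 for Fbln5-/- and 0.972 for WT), after the 50th percentile normalization of the methods. A signal of 100 served as limit and floor, under which 55.6% of Fbln5-/- and 55.2% of WT probe sets lay. Each gene was read at its brightest probe set by mean signal, and a 2-fold ratio was called. Symbols come from the platform annotation; all 125 matched the GRCm38.p6 gene table. The table served for names and gene order, and promoters come from RefSeq.

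With 1 array per genotype no test was made, and precision is limited by there being 1 array on either side of each ratio. The members and lists were chosen with earlier results of these data known. The text names every measured member 2-fold different, a few set members (Mmp2, Mmp9, Mmp14, Adam10, Adam17, Adamts1, Adamts5, all inhibitors), the 4 brightest per family, genes whose probe sets lay 1 or more apart, and up to 4 genes per pathway list. Other members, and other genes of the pathway lists, are given for completeness. Alternatives were 4 scalings, 2 other treatments of low signals, limits of 50 and 200, and 2 rules for probe sets; 1 more, all probe sets in 1 direction, was added after seeing the data. The steps were tested on simulated arrays in which changes were planted in bright genes, with all probe sets of a gene moved alike. That does not test changes near the limit or genes whose probe sets differ. Of the marker lists, endothelium (5 of 5 measured, median log2 ratio 0.21), skeletal muscle (4 of 5, 0.37) and neurons (2 of 4, 0.22) were also read. Computation used Python 3.11.15 with pandas 2.3.3, numpy 2.4.6 and scipy 1.17.1, and plots matplotlib 3.10.9.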

Additional observations from a re-analysis of the deposited data

How the results depend on the processing

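The family medians kept their sign under the 4 scalings, the 2 other treatments of low signals, the limits of 50 and 200 and the 2 rules for probe sets, other than that of the ADAMTS genes at a limit of 200 (0.22) and that of the inhibitors with the median over probe sets (-0.11). No gene called at the main settings changed sign. Adam10 and Adam15, called lower only under other rules below (log2 ratios -1.08 and -1.23), lay above 0 at the main settings (0.42 and 0.70). The number of MMP genes at least 2-fold higher dropped to 0, from 1, on the deposited scale, at the 75th percentile, with the median ratio set to 1, and at a limit of 200. With signals as measured, or with a limit of 50, 2 ADAMs were called higher (Adam22 and Adam23), 1 MMP lower (Mmp19) and 1 inhibitor lower (Timp4); with 32 added, 1 ADAM was called higher and 1 ADAMTS gene lower. With the median over probe sets, 1 ADAM (Adam10) and 1 inhibitor (Timp3) were lower and 0 ADAMTSL genes were higher. Without probe sets whose names end in _x_at, _s_at or _a_at, 1 ADAM (Adam15) was lower. When every measured probe set had to differ at least 2-fold, chosen after seeing the data, 1 ADAMTS gene (Adamts3) and 0 ADAMTSL genes were higher. The causes were not tested. Over all members, the called genes numbered 2 to 6 higher and 1 to 4 lower under all of these settings, beside 4 and 2. Adamts3 and Adamts10 were called under each of them, and Adamts5 under all but the rule on every measured probe set. Adamts1 was called under all but 32 added. Every setting read the same 1 array per genotype, and Adamts1, Adamts3 and Adamts10 each rest on 1 measured probe set. No paired analysis was possible because each genotype had 1 array, and for the same reason no array could be left out. Signals near 100, as for Mmp3, Mmp9, Adam33 and Timp4, limit what can be read from them.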

Other observations

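Probe sets annotated to more than 1 gene were left out of the families and are given here as values. Of 4 shared by Adam1a and Mapkapk5, 3 were measured, with signals of 221 on the Fbln5-/- array and 171 on the WT array, 152 and 163, and 148 and 205. A probe set shared by Adam6a and Adam6b had signals of 3.91 and 11.1. The RefSeq table held 86 genes that fit the family names, of which 15 (Adam20, Adam26b, Adam29, Adam30, Adam34l, Adam39, Adamts2, Adamts13, Adamts14, Adamts17, Mmp15, Mmp21, Mmp25, Mmp27 and Mmp28) were not analysed here.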
